A study of Mus musculus with 2 samples.

Results

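The 10 immunoglobulin constant region genes described here were Ighm, Ighd, Ighg3, Ighg1, Ighg2b, Ighg2c and Igha of the heavy chain, Igkc of the kappa light chain, and Iglc1 and Iglc2 of the lambda light chain. They were taken by symbol from the 32285 genes counted in single-cell RNA sequencing libraries of mouse bone marrow, and all 10 were present in both count matrices. The rule that picks them uses gene symbols and no measured value, although it was set with earlier results of these data known.

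An antibody pairs 2 heavy chains with 2 light chains, and the constant region of the heavy chain sets its class. A B cell joins V, D and J segments of its heavy chain locus first and makes IgM from Ighm. It then rearranges kappa, or lambda where kappa fails, and as a mature naive cell it makes IgM and IgD from the same primary transcript by splicing. Class switching deletes the DNA between the rearranged V region and a constant gene further downstream, so that a switched cell uses 1 of the Ighg genes, Ighe or Igha in place of Ighm and Ighd. Plasma cells, which lodge in the marrow, shift to the secreted form of the chains and devote much of their RNA to them. In textbook accounts most mouse B cells carry kappa.

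The study compared 1 wild-type mouse (WT) with 1 VavCre:Ddx41 fl/fl, cGAS-/- mouse (DKO), each giving 1 library of flushed femoral marrow made with the 10x Chromium 3' v3 kit. Vav-Cre acts in blood-forming cells and their descendants, so it should remove the floxed Ddx41, a DEAD-box helicase, at every B cell stage. Deletion at each stage was not measured here. The label gives cGas, a sensor of cytosolic DNA, as knocked out in the whole animal. By the study's methods a control animal came from the same litters, had both cGas alleles intact, and kept the floxed Ddx41 uncut for want of the Cre, and the mice were described as 2 months old. With 1 mouse per genotype, genotype, mouse and library cannot be told apart, no test between the libraries was possible, and no p-value is given.

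After filtering, 18743 WT and 13729 DKO cells remained, with 119641016 and 114830668 UMIs (counted molecules) and a median of 4882 and 6904 UMIs per cell. Levels are given as CPM, counts per 1000000 UMIs of the cells named. Intervals in parentheses are exact 95% intervals and cover counting error only, not differences between mice. Ratios are log2 of the DKO over the WT CPM with 1 count added, so negative values mean lower in the DKO library, and a ratio of 1 or more in either direction is called past 2-fold. Ddx41 stood at 20.2 CPM in the WT and 8.0 CPM in the DKO library, and Cgas at 13.5 and 7.25 CPM. Ddx41 was also lower within mature B-like cells, at 35.6 and 22.5 CPM. Within classes Cgas varied, at 34.7 and 28.5 CPM in monocyte-like cells (-0.28), 13.9 and 11.1 CPM in neutrophil-like cells (-0.32), 19.2 and 6.73 CPM in plasmacytoid dendritic-like cells (-1.41, -2.53 to -0.61) and 4.54 and 2.36 CPM in early erythroid-like cells (-0.94). The part of each gene that 3' counting reads may lie outside the deleted part, and neither value then checks the labels. The libraries shared 81 cell barcodes.

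The 7 heavy chain members lie in the same orientation on the minus strand of chromosome 12 (GRCm38), in the order Ighm (chr12:113418558-113422730), Ighd, Ighg3, Ighg1, Ighg2b, Ighg2c and Igha (chr12:113254830-113260236), within 168 kb. Ighe, the IgE gene, lies between Ighg2c and Igha. Igkc lies on the plus strand of chromosome 6 (chr6:70726435-70726966), and Iglc1 (chr16:19061618-19062071) and Iglc2 (chr16:19198396-19200351) on the minus strand of chromosome 16. Counting of 3' ends can tell such relatives apart only where their ends differ. Iglc2 and Iglc3, the third lambda constant gene, were 96.2% identical over their coding part, Iglc1 and Iglc2 73.3%, and Ighg2b and Ighg2c 85.6%. No stretch of 90 bases in the last 500 bases of any member's transcript was shared exactly with another gene of the annotation. Iglc2 and Iglc3 are nevertheless the pair whose counts are the least certain, because they differ at 1 base of their last 90 coding bases. These bases are printed 5' to 3' (GENCODE M21), with capitals where a gene differs from Iglc2, since the separation of Iglc1 from the other lambda genes carries the light chain results.
Iglc1 (chr16:19061752-19061841, minus strand): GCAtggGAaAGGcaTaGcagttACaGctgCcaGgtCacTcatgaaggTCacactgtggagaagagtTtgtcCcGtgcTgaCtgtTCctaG
Iglc2 (chr16:19198536-19198625, minus strand): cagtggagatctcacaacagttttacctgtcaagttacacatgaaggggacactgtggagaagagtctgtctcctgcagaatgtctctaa
Iglc3 (chr16:19065365-19065454, minus strand): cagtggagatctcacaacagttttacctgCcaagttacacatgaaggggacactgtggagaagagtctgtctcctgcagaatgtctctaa
Iglc1 differed from Iglc2 at 27 of the 90 bases.

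B cells were staged without any immunoglobulin gene, from the marker genes of each stage. Pro-B and large pre-B-like cells (95 WT, 62 DKO) were led by Vpreb1, Igll1 and Dntt, the surrogate light chain genes and the enzyme that adds bases at V-D-J joints. The 4 stage markers raised there were these genes and Vpreb2. Mki67 and Top2a, the stage's markers of dividing cells, were not raised, so the class may hold few large pre-B cells. Small pre-B and immature B-like cells (300 and 289) were led by Rag1 and Il2ra, mature B-like cells (1159 and 708) by genes of antigen presentation and by Fcer2a and Cr2, and plasma cell-like cells (44 and 57) by Jchain, Mzb1, Derl3 and Tnfrsf17. Before the plasma cell class, the median cell of a stage had 2460.5 to 3058 UMIs in the WT and 3443 to 5091.5 in the DKO library. A further 934 WT and 579 DKO B cells met the naming rule of no stage and were left unstaged. Among them, sub-cluster 11 (155 WT and 112 DKO cells) was led by genes of dividing cells such as Top2a. Late erythroid-like cells (5229 and 4029), which should lack these genes, served as a background class, and so did 1125245 WT barcodes with at most 100 UMIs, called empty droplets here. Such barcodes were not analysed for the DKO library, whose matrix lists called cells.

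**Figure D1:**
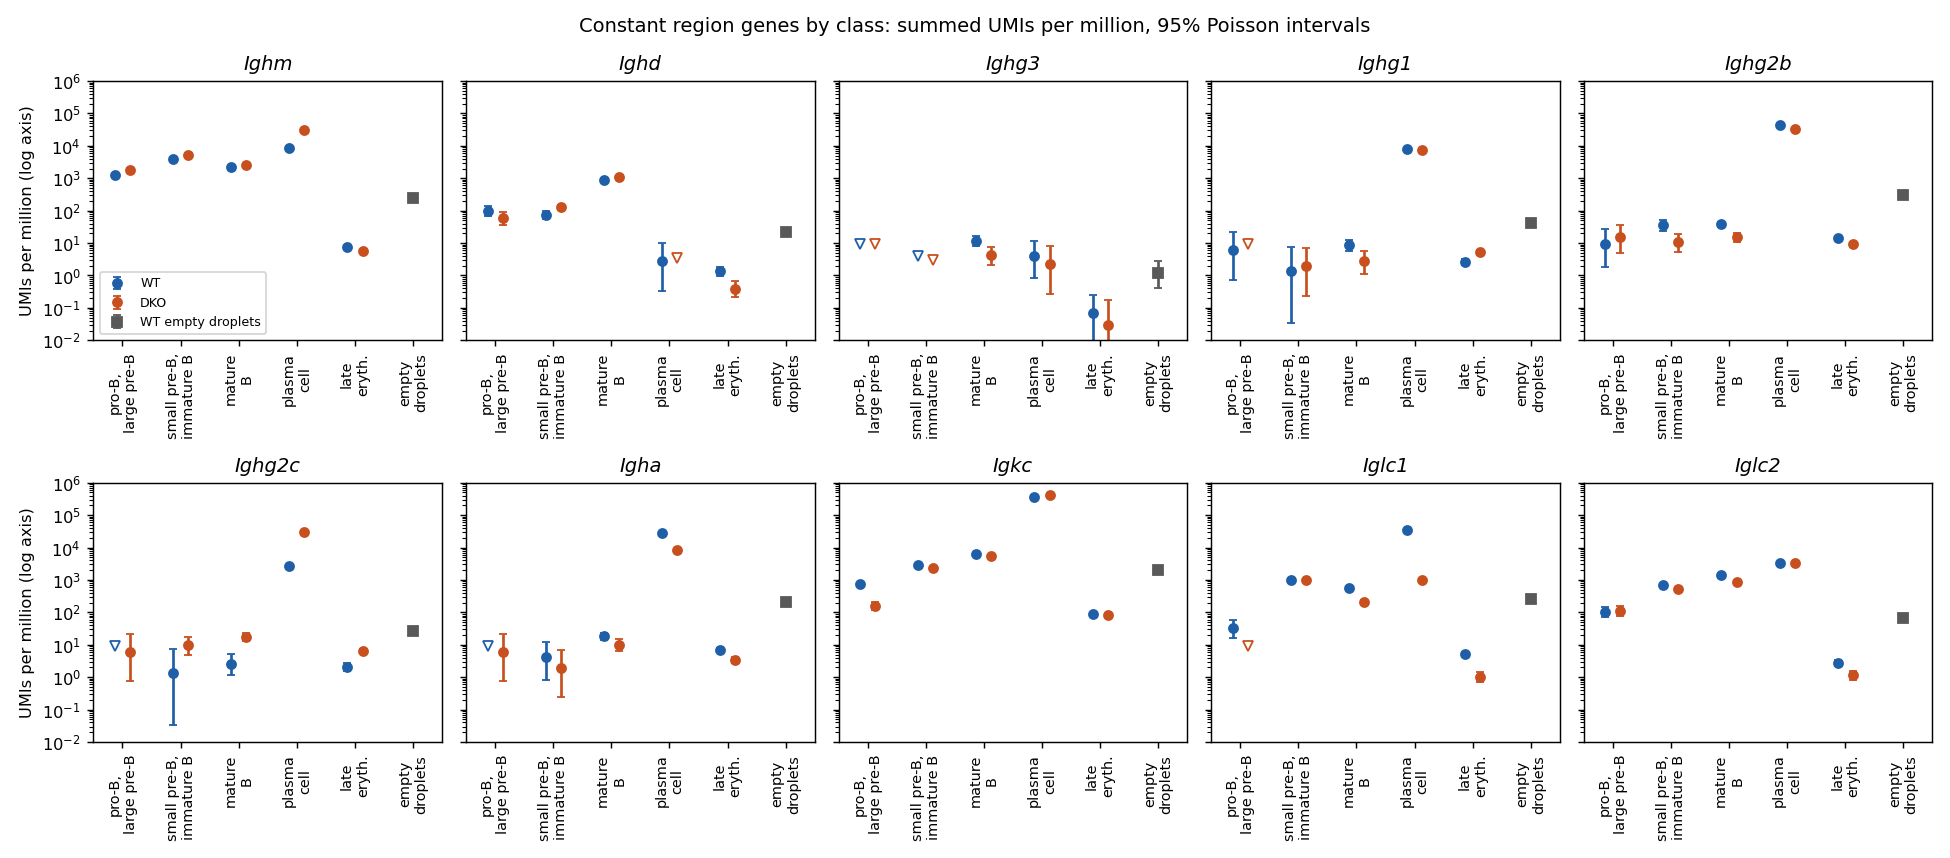
Level of each of the 10 genes, in CPM on a log axis, in 4 B-lineage classes and in late erythroid-like cells of the WT (blue) and DKO (orange) library, with exact 95% counting intervals; grey squares are the WT empty droplets and open triangles mark the level of 3 counts where no UMI was found. Igkc stood highest of the 10 in mature B-like and plasma cell-like cells of both libraries, Ighd was confined to levels of 2.72 CPM or less in plasma cell-like cells, and the switched genes were low until that class.

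Ighm, the IgM heavy chain, was the member with the most UMIs in the earliest class. In pro-B and large pre-B-like cells it stood at 1291 CPM in the WT and 1859 CPM in the DKO library, and 84.2% and 93.5% of cells held at least 1 Ighm UMI. It was higher again in small pre-B and immature B-like cells, at 3869 CPM (3728 to 4014) and 5089 CPM (4951 to 5229). In mature B-like cells it was lower than in that stage in both libraries, at 2303 CPM (2249 to 2357) and 2610 CPM (2548 to 2673). At all 3 stages Ighm was higher in DKO than in WT cells, by 0.53 (0.35 to 0.71), 0.40 (0.33 to 0.46) and 0.18 (0.13 to 0.23) on the log2 scale, with none of the 3 differences past 2-fold. With only cells above the order-of-magnitude threshold (4869 UMIs in the WT library), the 3 ratios were 0.08, 0.16 and -0.13, so the direction in mature B-like cells depended on this choice.

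Ighd followed a later course. It stood at 100 CPM (68.8 to 140.4) and 58.1 CPM (35.0 to 90.7) in pro-B and large pre-B-like cells, from 33 and 19 UMIs. In small pre-B and immature B-like cells it was at 74.8 CPM (56.4 to 97.4) and 128 CPM (107 to 152). Mature B-like cells held 867 CPM (834 to 901) in the WT and 1091 CPM (1051 to 1132) in the DKO library, which was higher than in the previous stage by 3.51 (3.15 to 3.95) and 3.08 (2.84 to 3.35) on the log2 scale. Of the UMIs of Ighm and Ighd together, Ighd made up 1.90% (1.43 to 2.46) and 2.46% in small pre-B and immature B-like cells and 27.4% (26.5 to 28.3) and 29.5% (28.6 to 30.4) in mature B-like cells. The switch from almost pure Ighm to a mixture with Ighd, which is the usual mark of a naive mature B cell, therefore had nearly the same proportions in both libraries.

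Light chain UMIs appeared in another order. Igkc stood at 727 CPM (638 to 825) in WT and 159 CPM (119 to 209) in DKO pro-B and large pre-B-like cells, a log2 ratio of -2.17 (-2.65 to -1.76). Among unstaged B cells whose closest stage was this one, the libraries were nearer to each other. Sub-cluster 10 (149 WT and 89 DKO cells) had 335 and 321 CPM of Igkc. Its leading genes included Dtl, Cdca7 and Hells, which dividing cells express. Sub-cluster 9 (37 and 24 cells) had 428 and 303 CPM. It was led by neutrophil genes such as Retnlg, Mmp8 and S100a8, at a median of 15247 UMIs, so it may not hold B cells alone. In late erythroid-like cells of the same libraries Igkc stood at 90.8 and 84.2 CPM (-0.11), where 1 DKO cell held 629 of the 2761 UMIs and the ratio was -0.73 without the 2 WT and 4 DKO cells over 1% immunoglobulin UMIs, and in WT empty droplets at 2076 CPM, and the part of free RNA in the difference was not tested. Of the WT cells of this stage, 45.3% held an Igkc UMI, with 41 UMIs in the highest cell, and of the DKO cells 33.9%, with 15 in the highest. Thinned to 1000 UMIs per cell, which left out 2 WT cells and no DKO cell, 25.8% (17.3 to 35.9) of WT and 11.3% (4.66 to 21.9) of DKO cells held one. Of late erythroid-like cells, 32.0% in the WT and 28.8% in the DKO library held an Igkc UMI, and 8.02% and 4.84% after thinning.

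Lambda UMIs were few at this stage. Iglc1 gave 11 UMIs in the WT and 0 in the DKO library, which is at least 3.63-fold lower in DKO cells against a floor of 3 counts for the library. Iglc2 gave 35 and 36 UMIs, but 34 of the 36 DKO UMIs lay in 1 cell. The 5 switched heavy chain genes gave 0 to 5 UMIs each, too few to compare. Of the 10 members, 5 were past 2-fold in this class (2 higher and 3 lower in DKO cells), against 13.3% of all 7198 genes with at least 20 CPM in a library, and only Igkc and Iglc1 of these 5 had at least 20 CPM themselves. The median ratio over the members was 0.03, and over all genes 0.01.

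In small pre-B and immature B-like cells Igkc stood at 2851 CPM (2731 to 2976) and 2377 CPM (2283 to 2473), Iglc1 at 967 CPM (897 to 1041) and 994 CPM (934 to 1057), and Iglc2 at 690 CPM (631 to 753) and 545 CPM (500 to 592). The Iglc1 ratio was 0.04 (-0.10 to 0.18) and the Iglc2 ratio -0.34. Over the alternative settings these lambda ratios ranged from -2.24 to 0.24 and from -0.79 to 0.93, with -2.24 and 0.93 where only cells above the order-of-magnitude threshold were used. Of cells with a light chain UMI, lambda UMIs outnumbered those of Igkc in 83 of 285 WT cells, or 29.1% (23.9 to 34.8), and in 91 of 276 DKO cells, or 33.0% (27.5 to 38.9). Only 2 members were past 2-fold here, Ighg2b with 26 and 11 UMIs (-1.65, -2.88 to -0.65) and Ighg2c with 1 and 10 UMIs (1.98, 0.03 to 8.29), against 4.33% of 6601 genes. The median was -0.11 over the members and -0.01 over all genes.

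Light chain rearrangement needs the recombinase and follows the pre-B receptor checkpoint. Of the 7 surrogate light chain and recombination genes, 5 had at least 20 CPM in this class. Rag1, a subunit of the recombinase, was higher in DKO cells, at 369 and 753 CPM (log2 ratio 1.03, 0.83 to 1.24). Igll1 and Vpreb1, the 2 parts of the surrogate light chain of the pre-B receptor, were lower, at 83.0 and 20.5 CPM (-1.97) and at 102 and 43.0 CPM (-1.23). None of the 9 B cell receptor partners with at least 20 CPM was past 2-fold.

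In mature B-like cells 5 of the 10 members were past 2-fold, 4 lower and 1 higher in the DKO library, against 1.78% of 6449 genes, with a median of -0.77 over the members and 0.13 over all genes. Of these 5 only Iglc1 and Ighg2b had at least 20 CPM. Iglc1 was represented by 1696 UMIs in 1159 WT cells and 557 UMIs in 708 DKO cells, or 559 CPM (533 to 587) and 216 CPM (199 to 235), a log2 ratio of -1.37 (-1.51 to -1.23). With only cells above the order-of-magnitude threshold it was -0.66 and no longer past 2-fold. Iglc2 was lower by less, at 1411 CPM (1369 to 1454) and 857 CPM (821 to 893), a ratio of -0.72 (-0.79 to -0.65), while Iglc3 stood at 678 and 563 CPM (-0.27). Igkc stood at 6526 CPM (6435 to 6618) and 5368 CPM (5279 to 5458), a ratio of -0.28 (-0.31 to -0.25). Over the whole class all 4 light chain genes were thus below WT levels, with Iglc1 the furthest below, but Igkc and Iglc3 did not keep this order within sub-clusters.

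The largest sub-cluster of this class was not the same in the 2 libraries. Sub-cluster 0 had 568 WT and 219 DKO cells, and sub-cluster 1 had 275 and 429. Sub-cluster 5, led by Apoe, Ly6a and Cd74, had 282 and 47. Iglc1 was lower in the DKO library within each of these 3, at 490 and 294 CPM in sub-cluster 0, 363 and 179 CPM in sub-cluster 1, and 975 and 247 CPM in sub-cluster 5. Iglc2 showed the same order within each, at 1328 and 1095 CPM, 1045 and 713 CPM, and 2074 and 1484 CPM. Of the 3, sub-cluster 5 had the highest level of both genes, except for Iglc1 in the DKO library, where sub-cluster 0 was higher. Igkc stood at 6246 and 6183 CPM, 4987 and 4796 CPM, and 9418 and 10109 CPM in sub-clusters 0, 1 and 5, so that it was higher in DKO cells of sub-cluster 5. Iglc3 was higher in DKO cells of sub-clusters 0 (644 and 711 CPM) and 5 (836 and 1068 CPM) and lower in those of sub-cluster 1 (629 and 483 CPM).

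Counted per cell, lambda led in 151 of 1149 WT mature B-like cells with a light chain UMI, or 13.1% (11.2 to 15.2), and in 48 of 692 DKO cells, or 6.94% (5.16 to 9.09). With only cells above the order-of-magnitude threshold, it led in 14 of 67 WT (20.9%) and 10 of 50 DKO cells (20%), so that this difference was not seen there. These shares do not give clean kappa and lambda cells. Of cells with at least 5 UMIs of either chain, 551 of 1072 WT cells (51.4%) and 339 of 672 DKO cells (50.4%) had at least 5 of both, although a B cell as a rule uses 1 light chain. With cells thinned to 1000 UMIs, which left out 50 WT and 10 DKO cells, a lambda UMI was found in 83.4% of WT and 67.9% of DKO mature B-like cells and in 0.789% and 0.580% of late erythroid-like cells. An Igkc UMI was found in 93.6% and 92.0% against 8.02% and 4.84% (without thinning, lambda 93.4% and 94.8%, kappa 94.5% and 94.8%). A lambda UMI was thus found in a far larger share of mature B-like than of late erythroid-like cells. WT empty droplets, however, held Iglc1 at 255 CPM and Iglc2 at 68.7 CPM. Iglc1 in WT mature B-like cells, at 559 CPM, was above that level. The 216 CPM of DKO mature B-like cells has no such level beside it, since DKO empty droplets were not analysed. In late erythroid-like cells Iglc1 stood at 5.17 CPM in the WT and 1.04 CPM in the DKO library. Iglc2 in mature B-like cells stood at 1411 and 857 CPM, and the part of free RNA was not tested.

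The switched heavy chain genes were rare in mature B-like cells. Ighg2b gave 115 WT and 40 DKO UMIs, Igha 55 and 26, Ighg3 35 and 11, Ighg1 26 and 7, and Ighg2c 8 and 46. In only 6 of 1159 WT cells (0.518%, 0.190 to 1.12) and 4 of 708 DKO cells (0.565%, 0.154 to 1.44) did a switched gene have at least 3 UMIs and more than Ighm and Ighd together. The 6 WT cells were 4 led by Igha, 1 by Ighg1 and 1 by Ighg3, and the 4 DKO cells were 2 led by Ighg2b, 1 by Ighg2c and 1 by Ighg3. Ighg2c, higher in DKO cells by 2.62 (1.66 to 4.05), was also the member with the largest excess in DKO plasma cell-like and late erythroid-like cells. Single cells held 12 of the 46 DKO Ighg2c, 16 of the 26 WT Ighg1 and 9 of the 11 DKO Ighg3 UMIs. Of the UMIs of Ighg1, Ighg2b, Ighg2c and Igha, Ighg2c made up 3.92% in WT and 38.7% in DKO mature B-like cells. In plasma cell-like cells it made up 3.32% and 39.0%, and the part of free RNA was not tested.

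Among the other genes of the pathway, 12 of 17 class switching genes had at least 20 CPM in mature B-like cells and 1 of these was past 2-fold, Tgfbr1, a receptor chain for TGF-beta, at 45.2 and 111 CPM (1.29, 0.99 to 1.60). Of 10 B cell receptor partners, all with at least 20 CPM, none was past 2-fold, with Syk (0.71) and Cr2 (0.70) the furthest from 0. Of the 5 antibody receptor genes with at least 20 CPM, Fcer1g, the signalling chain that several Fc receptors share, was lower, at 34.0 and 10.5 CPM (-1.66).

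Plasma cell-like cells made up 0.235% of WT and 0.415% of DKO cells but held most UMIs of 6 of the 10 members in the WT library (Igkc, Iglc1, Igha, Ighg1, Ighg2b and Ighg2c) and of 5 in the DKO library (the same without Iglc1). Immunoglobulin genes together, V, D and J segments included, gave 51.1% of all UMIs of this class in the WT and 52.8% in the DKO library. Igkc stood at 372245 CPM and 407944 CPM, the most of any member in both libraries. The class differed in depth: the median cell had 16837.5 UMIs in the WT and 5980 in the DKO library, and 7 WT and 21 DKO cells had under 2000 UMIs. The cells of the 2 libraries were spread differently over its 3 sub-clusters. The shallowest, with a median of 1117 UMIs, had 3 WT and 23 DKO cells. The other 2 had 20 WT and 21 DKO cells and 21 WT and 13 DKO cells.

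The heavy chains of these cells differed in make-up between the libraries. Ighg2c, which codes for IgG2c, stood at 2723 CPM (2606 to 2845) in the WT and 31261 CPM (30895 to 31630) in the DKO library, so that the log2 ratio was 3.52. Ighm stood at 8525 CPM and 30537 CPM (1.84, 1.80 to 1.88). Igha, which codes for IgA, was lower in the DKO library, at 27144 CPM (26769 to 27523) and 8502 CPM (8312 to 8695), a ratio of -1.67 (-1.71 to -1.64). Ighg2b, at 44098 and 32954 CPM (-0.42), and Ighg1, at 8113 and 7524 CPM (-0.11), were nearer to each other. Ighd gave 2 and 0 UMIs and Ighg3 3 and 2 UMIs in the whole class.

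Of the 10 members 5 were past 2-fold in this class (Ighg2c and Ighm higher, Igha, Iglc1 and, from its 2 UMIs, Ighd lower), against 11.9% of 3718 genes, with a median of -0.26 over the members and -0.09 over all genes. Each such sum rests on a few cells, which is shown by the numbers behind Ighg2c and Ighg1. In the WT library 1900 of the 2166 Ighg2c UMIs of all cells lay in 1 plasma cell-like cell. In the DKO library 9 of the 10 highest cells were plasma cell-like, with up to 5292 UMIs in 1 cell. Of the 7108 Ighg1 UMIs of the DKO library 6300 lay in 1 cell, and of the 6251 of the WT library 3695 in 1 cell and 2269 in another. Without the top cell of each library the Ighg2c ratio was 7.51 and the Ighg1 ratio -2.75, and as means over the cells' own CPM they were 1.82 and 1.23, so the direction of Ighg2c did not depend on this weighting and that of Ighg1 did.

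A plasma cell transcribes 1 productive heavy chain locus, so its leading constant gene gives its class. Among cells with at least 20 heavy chain UMIs (38 WT and 53 DKO), the leading gene had between 98.3% and 100% of the heavy chain UMIs of a WT cell and at least 97.2% of those of a DKO cell, so that almost no cell mixed 2 classes. Among these cells Igha led in 16 WT cells, or 42.1% (26.3 to 59.2), and in 6 DKO cells, or 11.3% (4.27 to 23.03). Ighm led in 4 WT and 13 DKO cells, Ighg2b in 13 and 19, Ighg2c in 3 and 10, and Ighg1 in 2 and 5. Neither Ighg3, nor Ighd, nor Ighe led in any of them, which allows a share of up to 9.25% in the WT and 6.72% in the DKO library (exact 95% upper bound). Of the other 6 WT and 4 DKO cells of the class, 1 WT cell had 46.1% immunoglobulin UMIs, 11 Jchain UMIs and 19 heavy chain UMIs, all of Ighg2c. The remaining 5 and 4 held 0 Jchain UMIs, at most 1.82% immunoglobulin UMIs and 0 to 6 heavy chain UMIs, so their leading gene cannot be told from background. With all of these cells counted in, Igha led in 17 of 44 WT cells, or 38.6% (24.4 to 54.5), and in 6 of 57 DKO cells, or 10.5% (3.96 to 21.5), Ighm in 6 and 16, Ighg2b in 14 and 19, Ighg2c in 4 and 10 and Ighg1 in 2 and 6.

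**Figure D2:**
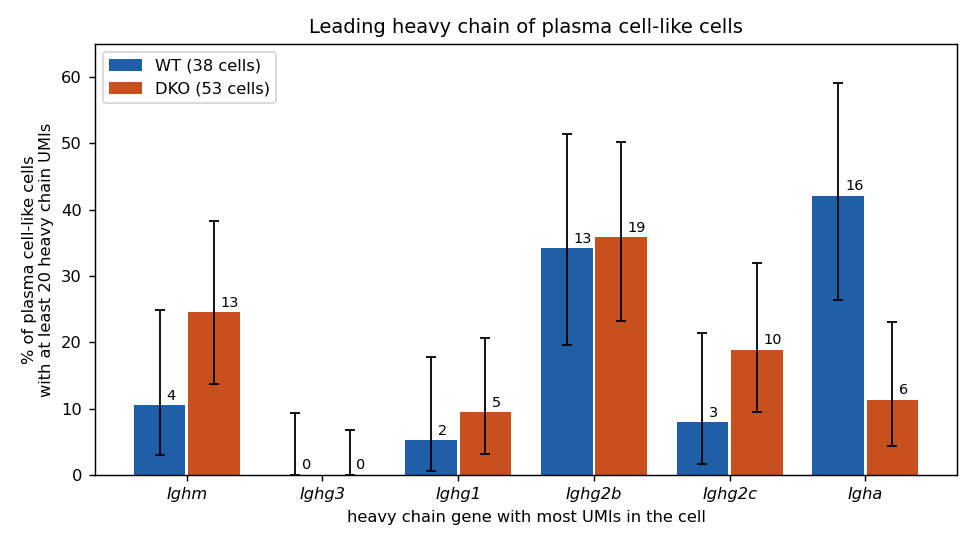
Share of plasma cell-like cells with at least 20 heavy chain UMIs that were led by each heavy chain gene, in % with exact 95% intervals, for the WT (blue) and DKO (orange) library; the numbers over the bars are cells. Igha led in 42.1% of WT and 11.3% of DKO cells, and Ighm in 10.5% and 24.5%.

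Among cells with at least 20 heavy chain UMIs the Igha intervals of the 2 libraries, which cover counting error only, do not overlap, while those of each other gene do. Of those with at least 2000 UMIs, Igha led in 16 of 36 WT cells (44.4%, 27.9 to 61.9) and 4 of 34 DKO cells (11.8%, 3.30 to 27.5), so the shares kept their order among deep cells. Ighg2c led in 1 of these 36 WT and 8 of these 34 DKO cells. With immunoglobulin genes kept in clustering, the WT class was larger, and Igha led in 18 of 69 WT and 6 of 55 DKO cells of the whole class. The WT share was lower there, and no interval was computed for these shares. The gap between the Igha intervals is therefore not shown to hold under that choice. Of cells with at least 20 heavy chain UMIs, 34 of 38 WT cells (89.5%, 75.2 to 97.1) and 40 of 53 DKO cells (75.5%, 61.7 to 86.2) were led by a switched gene. The 44 and 57 cells come from 1 mouse each and are not independent samples of a genotype, and whether they share clones was not tested.

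Jchain codes for the joining chain that links IgM and IgA molecules into polymers, through a cysteine next to the end of the secreted chain. The end of the coding sequence shows this residue in Ighm and Igha and its absence in Ighg2b. The last 60 bases are printed with the cysteine codon, the second to last before the stop, in capitals.
Ighm (chr12:113420867-113420926, minus strand): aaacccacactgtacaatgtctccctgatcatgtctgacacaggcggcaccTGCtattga
Igha (chr12:113258768-113258827, minus strand): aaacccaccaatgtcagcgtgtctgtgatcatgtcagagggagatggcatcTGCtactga
Ighg2b (chr12:113306389-113306448, minus strand): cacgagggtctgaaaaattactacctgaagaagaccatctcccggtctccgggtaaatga
Over the whole class Jchain stood at 46729 CPM in the WT and 27419 CPM in the DKO library (-0.77, -0.79 to -0.75).

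Among cells with at least 20 heavy chain UMIs, Jchain was highest in Igha cells, with a median of 84232 CPM over 16 WT cells and 68894 CPM over 6 DKO cells. Ighm cells had medians of 33831 CPM over 4 and 48636 CPM over 13 cells. Ighg2b cells, whose chain does not join Jchain, had 28681 CPM over 13 and 17399 CPM over 19 cells, and Ighg2c cells 17928 CPM over 3 and 25818 CPM over 10 cells. Jchain was present in cells of every class. Ighg1 cells had medians of 33611 CPM over 2 WT and 9841 CPM over 5 DKO cells. In the DKO library the lowest of the 6 Igha cells stood at 42631 CPM, above the highest of the 19 Ighg2b cells at 32980 CPM. It stood below DKO cells led by Ighg2c (54567 CPM, and 43116 CPM in a cell with 21616 UMIs) and by Ighg1 (52202 CPM). In the WT library Igha cells ranged from 11459 CPM upward.

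**Figure D3:**
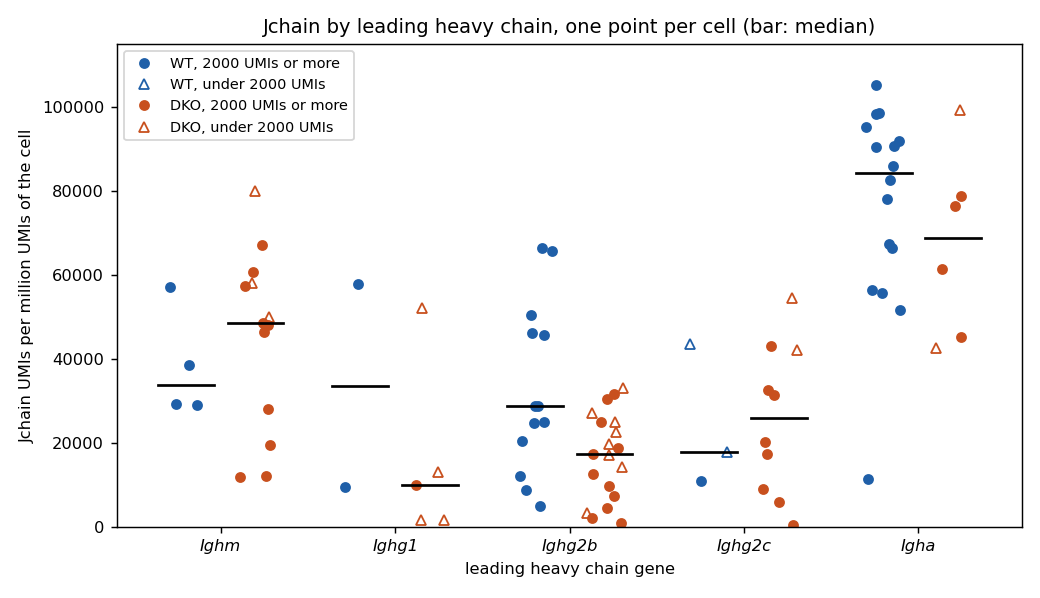
Jchain level in CPM of each plasma cell-like cell with at least 20 heavy chain UMIs, by its leading heavy chain gene and library; bars are medians and open triangles are cells with under 2000 UMIs. Igha cells reached 105225 CPM in the WT library and had the highest median in both.

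Light chains of plasma cell-like cells were kappa in 34 of 38 WT cells and 51 of 53 DKO cells with at least 20 heavy chain UMIs. The 4 WT lambda cells, or 10.5% (2.94 to 24.8), all used Iglc1, with 8216, 7552, 5530 and 3350 Iglc1 UMIs and 1 to 16 Igkc UMIs each. In 3 of them the heavy chain was Igha and in 1 Ighg1. All 4 had Iglv1 as the V gene with the most UMIs, between 126 and 396. The 2 DKO lambda cells, or 3.77% (0.460 to 12.98), were an Ighg2b cell with 366 Iglc1 UMIs and an Ighm cell with 348 Iglc2 UMIs, both with under 2000 UMIs in all.

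The 4 WT lambda cells set the Iglc1 sum of the WT library. In the DKO library the lambda cell with the most Iglc1 held 366 of the 880 Iglc1 UMIs of the class. Iglc1 stood at 34175 CPM in WT and 985 CPM in DKO plasma cell-like cells, a log2 ratio of -5.11 (-5.21 to -5.02) and the largest of any member in this class. Iglc2 was nearly level, at 3297 and 3373 CPM (0.03, -0.04 to 0.11), but came mostly from cells that used kappa. In kappa cells Iglc2 gave 0.789% of light chain UMIs in the WT and 0.714% in the DKO library, and Iglc1 0.185% and 0.139%. Every kappa cell held far more Igkc than lambda UMIs, since the leading chain of a WT cell had at least 96.4% of its light chain UMIs and of a DKO cell at least 88.8%. Over the median cell there were 4.49 light chain UMIs per heavy chain UMI in the WT and 3.26 in the DKO library.

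Most of the measurable V segment genes of plasma cell-like cells differed between the libraries. Of the 379 V, D and J segment genes, 59 had at least 20 CPM in plasma cell-like cells. Of these, 24 were past 2-fold higher and 30 past 2-fold lower in the DKO library, against 11.9% of 3718 genes either way. With 44 WT and 57 DKO cells, the sum of a segment can rest on few cells. The part held by single cells is not given here. Igkv8-28 gave 478 UMIs in the WT and 0 in the DKO library, Igkv3-4 0 and 309, and Igkv4-80 174 and 0. By contrast, of the 19 antibody secretion genes, all with at least 20 CPM, none was past 2-fold. Among them Hspa5, the chaperone that binds unassembled heavy chains in the endoplasmic reticulum, was the furthest from 0, at 330 and 612 CPM (0.89, 0.67 to 1.12), followed by Jchain and by Tnfrsf17, the receptor for plasma cell survival factors (-0.64). None of 7 B cell receptor partners and none of 5 class switching genes with at least 20 CPM was past 2-fold.

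The share of a gene's UMIs that came from its 10 highest cells ranged widely over the members. Ighd was spread widely, with 2.90% of 3797 WT UMIs and 3.44% of 3660 DKO UMIs in the 10 highest cells and no cell above 15 UMIs. Ighg1 (96.2% and 96.7%), Ighg2b (88.8% and 93.7%), Ighg2c (94.0% and 97.1%) and Igha (74.2% and 96.5%) were held almost wholly by a few cells. Igkc (44.8% and 51.3%), Ighm (20.6% and 44.8%) and Iglc2 (14.6% and 22.9%) lay between, and for Ighm the number of cells that together held 50% of its UMIs was 646 in the WT and 57 in the DKO library. Iglc1 differed most between the libraries: its 10 highest cells held 81.2% of 31275 UMIs in the WT and 22.0% of 4739 UMIs in the DKO library. Ighg3 had only 49 and 17 UMIs in all.

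**Figure D4:**
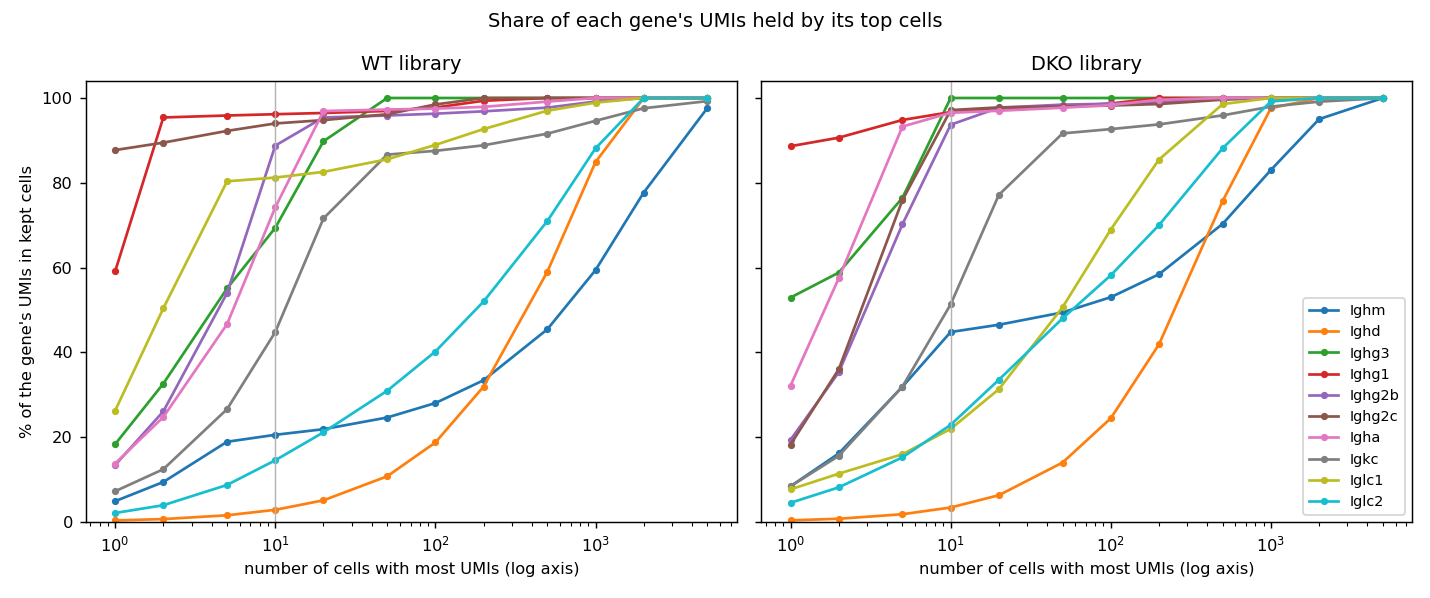
Cumulative share of the UMIs of each gene, in %, against the number of its highest cells, on a log axis, for the WT and DKO library. The curves of Ighg1, Ighg2b and Ighg2c are above 88% at 10 cells in both libraries, and those of Ighd are under 4%.

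Over all kept cells 4 of the 10 members were past 2-fold, against 1.07% of 5616 genes. Ighg2c stood at 18.1 and 252 CPM (3.80), Iglc1 at 261 and 41.3 CPM (-2.66), Igha at 202 and 70.0 CPM (-1.53) and Ighg3 at 0.410 and 0.148 CPM (-1.41). Ighm stood at 332 and 520 CPM (0.65), Igkc at 2789 and 3466 CPM (0.31), Iglc2 at 94.8 and 66.6 CPM (-0.51), Ighg2b at 289 and 263 CPM (-0.14), Ighg1 at 52.2 and 61.9 CPM (0.24, but -1.60 without the top cell of each library, where 5 members were past 2-fold), and Ighd at 31.7 and 31.9 CPM (0.01). The median was -0.07 over the members and over all genes alike.

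UMIs of these genes were also found where they should be absent. In WT empty droplets, with 4073556 UMIs in all, Igkc stood at 2076 CPM, Ighg2b at 299, Iglc1 at 255, Ighm at 245, Igha at 204, Iglc2 at 68.7, Ighg1 at 41.2, Ighg2c at 25.8, Ighd at 22.6 and Ighg3 at 1.23 CPM. Empty droplets held 2.37% of the Ighd UMIs of empty droplets and kept cells together, 3.33% of those of Igha and 4.62% of those of Ighg2c. At least 1 UMI of a member was found in 43.6% of WT and 38.1% of DKO late erythroid-like cells, at a median depth of 5407 and 8011 UMIs. These shares serve here as a background level, and the source of the UMIs was not tested. Cells over 1% immunoglobulin UMIs (2 WT and 4 DKO) held 87 of the 3773 WT and 1351 of the 3846 DKO member UMIs of this class. In neutrophil-like cells the shares were 54.4% and 53.0%, and the Ighm among these UMIs did not have the make-up of the empty droplets.

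In late erythroid-like cells 5 members were past 2-fold, 4 lower and 1 higher in the DKO library, against 23.6% of 652 genes, and of the 10 only Igkc reached 20 CPM. All 154 of these 652 genes that were past 2-fold were lower in the DKO library. The median was -0.70 over the members and -0.50 over all genes. Ighg2c stood at 2.09 CPM in the WT and 6.59 CPM in the DKO library (1.64) and Iglc1 at 5.17 and 1.04 CPM (-2.28), the same directions as in plasma cell-like cells. Igha stood at 6.94 and 3.42 CPM. In neutrophil-like cells 6 members were past 2-fold, against 1.24% of 5150 genes, with 2 members at 20 CPM or more and neither of these past 2-fold. Ighg2c stood there at 1.32 and 7.05 CPM and Iglc1 at 6.86 and 1.69 CPM.

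The make-up of the switched genes was set beside that of each library's own plasma cell-like cells. Of the UMIs of Ighg1, Ighg2b, Ighg2c and Igha in WT plasma cell-like cells, Ighg2c made up 3.32% and Igha 33.1%, and in WT empty droplets 4.52% and 35.8%. WT late erythroid-like cells with at most 1% immunoglobulin UMIs had 6.28% and 27.3%, and WT neutrophil-like cells 5.87% and 30.7%. In the DKO library Ighg2c made up 39.0% and Igha 10.6% in plasma cell-like cells, 42.0% and 17.3% in late erythroid-like cells with at most 1% immunoglobulin UMIs, and 39.9% and 11.8% in neutrophil-like cells. With all late erythroid-like cells Ighg2c made up 8.04% in the WT and 26.7% in the DKO library. In these sources the shares of Ighg2c and Igha were thus nearer to those of the plasma cell-like cells of their own library than of the other. Early erythroid-like cells with at most 1% immunoglobulin UMIs had 5.19% Ighg2c and 25.9% Igha in the WT and 36.7% and 16.5% in the DKO library. With all early erythroid-like cells Igha stood at 9.79% and 33.0%, where 1 WT cell held 561 of the 760 Ighg2b UMIs and 1 DKO cell 82 of the 134 Igha UMIs. Under the same limit Igha did not keep to the order in WT macrophage-like cells, with 17.2% of 58 UMIs, and DKO T cell-like cells, with 32% of 25 UMIs. Levels of single members outside B cells and plasma cells were carried in part by a few barcodes: 5 WT cells held 43.0% and 10 DKO cells held 14.0% of the member UMIs found there.

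**Figure D5:**
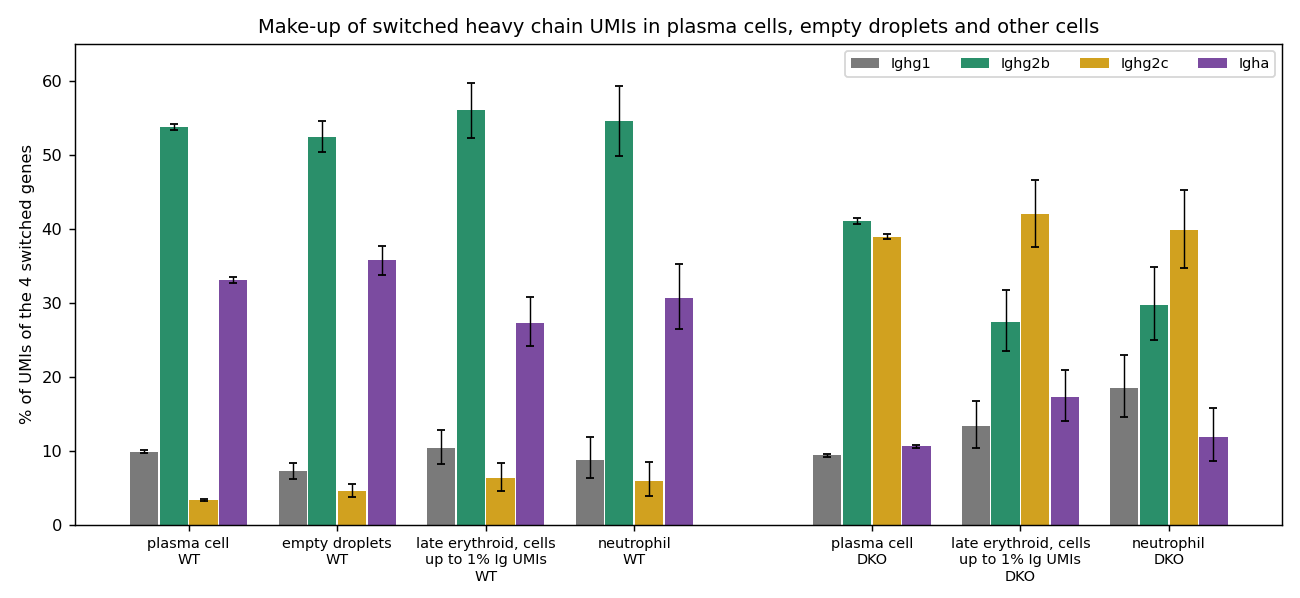
Share of each of Ighg1, Ighg2b, Ighg2c and Igha in the UMIs of these 4 genes, in % with exact 95% intervals, in plasma cell-like cells, WT empty droplets, late erythroid-like cells with at most 1% immunoglobulin UMIs and neutrophil-like cells. Ighg2c makes up 3.32% to 6.28% in the WT sources and 39.0% to 42.0% in the DKO sources.

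Ighm did not keep to that pattern. It stood at 678 CPM in WT and 696 CPM in DKO plasmacytoid dendritic-like cells, where 91.7% and 92.0% of cells held an Ighm UMI, or 52.2% (47.9 to 56.5) and 48.8% (41.2 to 56.6) after thinning to 1000 UMIs. Monocyte-like cells had 361 and 224 CPM (21.8% and 21.9% of thinned cells) and T cell-like cells 224 and 196 CPM (19.03% and 18.8%). In WT monocyte-like cells 1288 of the 3845 Ighm UMIs lay in 1 cell, and without the top cell of each library, a choice made after seeing the data, the levels were 241 and 223 CPM in monocyte-like and 218 and 166 CPM in T cell-like cells. Granulocyte-monocyte progenitor-like cells had 138 and 162 CPM (12.9% and 10.9%) and neutrophil-like cells 52.0 and 58.7 CPM (5.48% and 6.15%). Late erythroid-like cells had 7.36 and 5.80 CPM (0.846% and 0.681%). For each Igkc UMI there were 4.02 (3.68 to 4.40) and 5.97 (5.15 to 6.94) Ighm UMIs in plasmacytoid dendritic-like cells 1.29 and 1.93 in T cell-like cells, 3.02 and 6.34 in granulocyte-monocyte progenitor-like cells with at most 1% immunoglobulin UMIs and 0.677 (0.625 to 0.733) and 0.853 (0.788 to 0.924) in neutrophil-like cells, but 0.118 in WT empty droplets and 0.0811 and 0.0688 in late erythroid-like cells. With all granulocyte-monocyte progenitor-like cells the ratio was 0.217 and 5.95, where 1 WT cell held 8523 of the 9182 Igkc UMIs. The ratio in plasmacytoid dendritic-like cells was above that of mature B-like cells, 0.353 and 0.486, and below that of pro-B and large pre-B-like cells in the DKO library only, 11.7 (1.78 in the WT library).

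Over the 16 named classes of both libraries (32 points that share libraries and depth), the genes outside the immunoglobulin loci whose level ran most closely with a member were taken among 5020 genes. For Ighd they were Cd22 (Pearson r 0.95), Fcmr (0.94) and H2-Ob (0.93), for Ighm Irf4 (0.91), Ero1lb (0.90) and Mzb1 (0.90), and for Igha Jchain (0.98), Tnfrsf17 (0.91) and Chst1 (0.89). These are descriptions of level across classes, with no test.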

How the data were processed

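Bone marrow cells of 1 WT and 1 DKO mouse were profiled with the 10x Chromium 3' v3 kit. The authors aligned and counted the reads with Cell Ranger (version 7.1.0 per the file headers; mm10 in the submitters' processing notes) and deposited raw UMI counts per gene and barcode, with every barcode in the WT file (135693452 UMIs) and only called cells in the DKO file (117725934 UMIs). Members and lists were chosen with earlier results of these data known.

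WT cells were called by the order-of-magnitude rule, whose limit (4869 UMIs) is a set share of the 99th percentile among the 3000 largest barcodes, and by a Monte Carlo test of barcodes with at least 500 UMIs against barcodes with at most 100 UMIs (10000 simulations, false discovery rate 0.01). This gave 19222 WT cells, beside 14142 listed DKO cells. Cells over 20% mitochondrial UMIs (173 and 215) were removed, as were doublets scored by Scrublet in scanpy above thresholds of 0.237 and 0.228. Clusters (2000 variable genes, 30 components, 15 neighbours, Leiden resolution 1) and B and plasma sub-clusters were made without immunoglobulin genes and named from at least 3 markers, otherwise left unnamed. Names were rebuilt here and may differ from those of the study.

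UMIs were summed per class, with exact Poisson, Clopper-Pearson and conditional binomial 95% intervals. Intervals cover counting error only. Beside the members, Ddx41, Cgas, the 3 list genes with at least 20 CPM and the largest ratios per class, and the 3 genes most alike were named. On simulated counts with 200 genes changed 4-fold, 99.5% of changed and 2.14% of unchanged genes were past 2-fold in plasma cell-like cells (3148 genes), and 100% and 0% in mature B-like cells (6105 genes). The simulation drew UMIs for a class as a whole, without cells. It therefore gives no error rate for sums that rest on a few cells, as those of plasma cell-like cells do. 12 alternatives were planned and 6 added after seeing the data. Coordinates and sequences came from GENCODE M21 (GRCm38), in which 32158 of 32285 gene identifiers were found. Tools were scanpy 1.11.5, igraph 0.11.9, scikit-learn 1.9.0, biopython 1.88, matplotlib 3.10.9, pandas 2.3.3, scipy 1.17.1 and numpy 2.4.6 under Python 3.11.15.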

Additional observations from a re-analysis of the deposited data

Results flagged for a closer look

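Ighe, the IgE heavy chain gene and no member of the group described, gave 34 UMIs in DKO plasma cell-like cells and 0 in WT plasma cell-like cells, which is at least 9.34-fold higher against a floor of 3 counts for the class. Of these UMIs 33 lay in 1 cell, which also held 6300 Ighg1 UMIs, and the other lay in an Ighg2b cell. Late erythroid-like and neutrophil-like cells of both libraries and the WT empty droplets gave 0 Ighe UMIs.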

How the results depend on the processing

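No paired analysis was possible because each genotype has 1 library. Of 68 alternatives for the counts of members past 2-fold, 61 stayed within 1.5 times the reported count. With members of at least 20 CPM only, the counts were 2 in pro-B and large pre-B-like, 1 in small pre-B and immature B-like, 2 in mature B-like and 0 in late erythroid-like cells, in each case because low members drop out. With cells called by the order-of-magnitude threshold alone, they were 3 in pro-B and large pre-B-like and 4 in small pre-B and immature B-like cells, the pro-B and large pre-B-like ratios of Ighg1 and Igha, from few UMIs, turned to 0.54 and -0.46, and lambda led in 20.9% of 67 WT and 20% of 50 DKO mature B-like cells, so that the lambda difference was lost with most of the cells. The mean over plasma cell-like cells, chosen after seeing the data, put 8 members past 2-fold. Over all alternatives the plasma cell-like ratios ranged from 1.82 to 7.51 for Ighg2c, from 1.66 to 2.22 for Ighm, from -2.03 to -1.32 for Igha, from -5.88 to -2.59 for Iglc1, from -2.75 to 1.23 for Ighg1 and from -0.50 to 0.40 for Ighg2b. The Iglc1 ratio in mature B-like cells ranged from -1.50 to -0.66 and the Igkc ratio in pro-B and large pre-B-like cells from -2.40 to -1.14. Without late erythroid-like cells over 1% immunoglobulin UMIs, the ratio there was -0.73 for Igkc, 1.93 for Ighg2c and -0.42 for Ighg1, of which 1 DKO cell had held most UMIs. Of 269 alternatives for single ratios past 2-fold, 249 stayed past 2-fold. The cause was not tested. Members with under about 50 UMIs in a class are limited by depth.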

Other observations

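The cluster that held the plasma cell-like cells also held 27 WT cells and 0 DKO cells that were left unnamed, with a median of 7519 UMIs. Their leading genes included Bank1 and H2-Ob, which B cells express, beside Jchain. Together these 27 cells held 749 Igha, 141 Ighm, 75 Ighd, 1850 Igkc and 386 Jchain UMIs, and 96.3% of them had an Ighm UMI. All 749 Igha UMIs lay in 1 cell, and single cells held 1489 of the Igkc and 384 of the Jchain UMIs, so these sums do not describe the 27 cells as a group. The other unnamed pieces of that cluster, of 23 WT and 39 DKO and of 5 WT and 4 DKO cells, held no Ighg1, Ighg2b or Ighg3 UMI.

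Outside B cells and plasma cells, 5 WT cells with at least 100 member UMIs held 13966 Igkc, 3394 Igha, 1339 Ighm and 3293 Jchain UMIs, with 11293 member UMIs in the highest. The corresponding 10 DKO cells held 1609 Igkc, 218 Ighm, 169 Igha and 117 Jchain UMIs, with 741 in the highest. Within the unstaged B cells, sub-cluster 4 (252 WT and 194 DKO cells), led by Il4i1 and Egr1, had 4097 and 5518 CPM of Ighm, 264 CPM of Ighd in both libraries, and 1923 and 1940 CPM of Iglc1.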
